A study of Mus musculus with 15 samples.

Results

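The genes described here encode the core of the basement membrane. They are the type IV collagen chains Col4a1 and Col4a2, type XV collagen Col15a1, the laminin chains Lama2, Lama4, Lamb1 and Lamc1, the nidogens Nid1 and Nid2, and the proteoglycan perlecan, Hspg2. The 10 symbols were a set list, chosen with earlier results of these data known. Each was read from the deposited expression table by its gene symbol. All 10 were found among 10222 gene symbols, with 0 absent, on 11 of 12698 RefSeq transcripts. Expression was measured by RNA-seq in RPKM, a read count corrected for the length of the transcript and the depth of the library, and the value of a gene is the sum of its transcripts. All mice were C57BL/6 heterozygous for an Il33-citrine reporter, in which citrine marks cells that transcribe the cytokine gene Il33, and none was labelled as treated. Age and sex were not given in the labels used here.

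5 populations were sorted by flow cytometry, with 3 libraries of each, described as replicates from independent experiments. Il33+ and Il33- WAT-MSC were mesenchymal stromal cells of white adipose tissue (WAT), labelled mesenteric. They lacked lineage markers, CD45, EpCAM, CD31 and CD24 and carried PDGFRα, CD34, Sca1 and podoplanin, with or without citrine. Lung Il33+ MSC were labelled as IL33+ MSC of the lung. WAT endothelial cells were CD31+ and lung epithelial cells EpCAM+, both without lineage markers or CD45, and neither was labelled as selected for citrine. A sort gate, and not a lineage tracer, therefore defined each population, and the fat depot of the endothelial cells was not given.

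The basement membrane is a thin sheet of extracellular matrix that underlies epithelia and endothelia and encloses adipocytes, muscle fibres and nerves. Laminins are trimers of an alpha, a beta and a gamma chain that bind integrins and dystroglycan on the cell and polymerise into a first layer. Type IV collagen, a triple helix made in most tissues of Col4a1 and Col4a2 chains, forms a separate covalent network. Nidogens and perlecan bridge laminin to that network. In adipose tissue each mature adipocyte lies in such a sheet, and stromal cells are known contributors to it.

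Col4a1 (GRCm38, chr8:11198423-11312889, minus strand) and Col4a2 (chr8:11312805-11449287, plus strand) lie head to head, and their annotated spans share 85 bases. Their start regions are shown because both genes are read from the same stretch and their levels were the most alike of any gene to either, as given below. The windows are 250 bases before to 50 bases after a RefSeq start, written 5′ to 3′ on each gene's own strand. They come from the RefSeq table of GRCm38.p6. The starts used are chr8:11312826 for Col4a1 and chr8:11312805 for Col4a2, 21 bases apart. That of Col4a1 lies inside its annotated span, whose 5′ end is 11312889. Capitals mark the 78 bases that fall in both windows (chr8:11312777-11312854), which read as reverse complements. The Col4a1 window is chr8:11312777-11313076 and the Col4a2 window chr8:11312555-11312854.
Col4a1: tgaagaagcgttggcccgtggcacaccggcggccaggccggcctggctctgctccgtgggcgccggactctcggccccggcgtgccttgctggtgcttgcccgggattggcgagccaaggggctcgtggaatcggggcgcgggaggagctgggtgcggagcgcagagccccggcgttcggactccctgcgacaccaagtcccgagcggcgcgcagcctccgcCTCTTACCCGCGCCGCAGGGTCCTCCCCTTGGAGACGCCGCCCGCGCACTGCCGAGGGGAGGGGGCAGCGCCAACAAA
Col4a2: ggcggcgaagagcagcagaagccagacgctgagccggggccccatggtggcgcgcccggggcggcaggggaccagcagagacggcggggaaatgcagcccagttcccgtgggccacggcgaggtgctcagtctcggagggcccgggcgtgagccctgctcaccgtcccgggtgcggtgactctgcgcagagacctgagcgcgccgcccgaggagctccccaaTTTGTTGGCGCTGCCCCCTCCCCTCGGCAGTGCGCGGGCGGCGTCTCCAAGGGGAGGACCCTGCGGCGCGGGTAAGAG
Counted on both strands, the CCAAT letters occurred 1 time in each window, and the GGGCGG letters 1 time in the Col4a1 window and 3 times in the Col4a2 window. Of 32544 promoter windows of the same length, 37.4% held CCAAT and 35.9% held GGGCGG, so either match is common. The other members lie apart from each other on different chromosomes or at distant positions. Col15a1 (chr4:47207655-47313167) and Hspg2 (chr4:137468751-137570630) are on chromosome 4, Lama2 (chr10:26981285-27617191, minus strand) and Lama4 (chr10:38965515-39110188) on chromosome 10, Lamb1 (chr12:31265146-31329644) on chromosome 12 and Lamc1 (chr1:153218922-153332786, minus strand) on chromosome 1. Nid1 (chr13:13437602-13512275) is on chromosome 13 and Nid2 (chr14:19751257-19811787) on chromosome 14.

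Alignments ranged from 42711843 to 60773158 per library, and 1.87 to 10.9% of transcripts were listed at 0, the highest share being that of endothelial replicate 1. Correlations between replicates were 0.868 to 0.962 outside the endothelium and 0.773 to 0.918 within it. Il33 itself was 38.7 to 78.5 RPKM in Il33+ WAT-MSC and 4.31 to 6.76 in Il33- WAT-MSC. Defining markers were detected in their own populations: the summed RPKM of 12 endothelial markers was 698 to 805 in endothelium and at most 91.2 elsewhere. That of 11 epithelial markers was at least 162171 in epithelium and at most 551 elsewhere. The 12 stromal markers summed to 4846 to 9936 in the 3 MSC populations and 162 to 267 in epithelium, but still to 2159 to 4538 in the endothelial libraries. In the epithelial libraries Scgb1a1, a secretoglobin of airway club cells, took 57.7 to 62.9% of the summed RPKM.

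The level of every member had the same 2 populations at the top and the same population at the bottom. Il33- WAT-MSC had the highest mean of all 10 members, Il33+ WAT-MSC the next and lung epithelium the lowest, while endothelium stood above lung Il33+ MSC for 6 members and below it for 4. Summed over the members, the level was 2274 to 2943 RPKM in Il33- WAT-MSC, 1483 to 1670 in Il33+ WAT-MSC, 681 to 763 in lung Il33+ MSC, 575 to 1047 in endothelium and 47.1 to 60.9 in epithelium. Bulk RNA of a sorted population gives the mean over its cells, so fewer cells that make a transcript and less transcript per cell cannot be told apart.

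**Figure D1:**
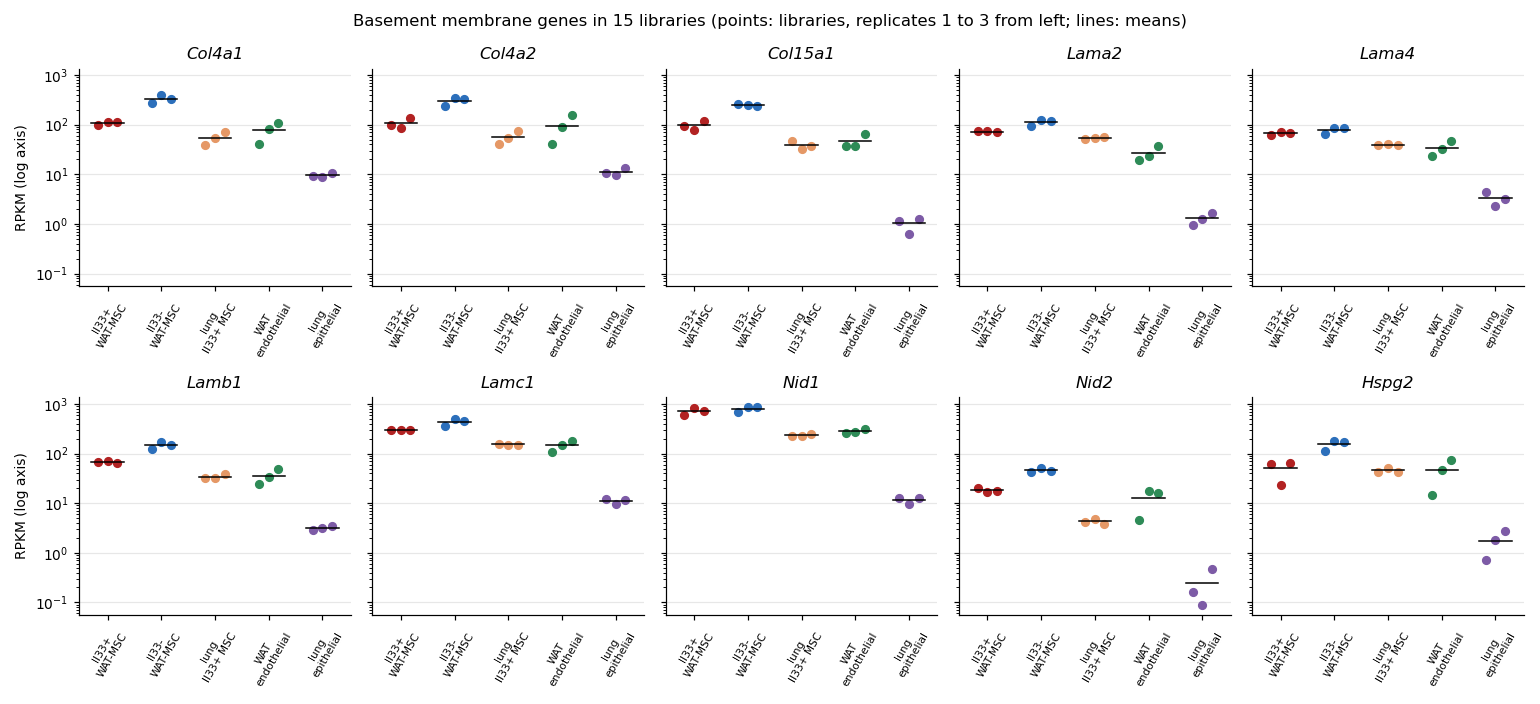
RPKM of the 10 members on a log axis in 5 populations. Points are libraries (replicates 1 to 3 from left to right) and lines are means of 3. Each member's highest mean is that of Il33- WAT-MSC and its lowest that of lung epithelium, and the endothelial points spread most widely for Col4a1, Col4a2, Nid2 and Hspg2.

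Among the collagens, Col4a1 was 99.4, 115 and 114 RPKM in the 3 Il33+ WAT-MSC libraries and 274, 391.6 and 334 in the Il33- libraries. It was 39.3, 53.2 and 72.2 in lung Il33+ MSC, 41.2, 82.8 and 110.1 in endothelium and 9.43, 8.62 and 10.8 in epithelium. The Il33- libraries thus stood clear of all others, and those of Il33+ WAT-MSC, endothelium and lung MSC ran into each other in that order. Col4a2, its partner in the triple helix, was 99.8, 86.2 and 135 in Il33+ WAT-MSC, 242, 344 and 323 in Il33- WAT-MSC and 41.6, 53.3 and 74.9 in lung Il33+ MSC. It was 40.2, 88.7 and 158 in endothelium and 10.4, 9.82 and 13.4 in epithelium, with the same overlaps as Col4a1. Col15a1, a collagen of the outer face of basement membranes that links them to the fibrous matrix, was 94.4, 79.6 and 121 in Il33+ WAT-MSC and 264, 245 and 233 in Il33- WAT-MSC. It was 47.3, 32.7 and 37.4 in lung Il33+ MSC, 37.3, 36.9 and 65.7 in endothelium and 1.16, 0.63 and 1.28 in epithelium. Lung MSC and endothelium were the only neighbours in its order whose libraries overlapped.

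The laminin chains differed in RPKM among themselves. RPKM corrects for transcript length, but whether amplification or read assignment altered levels between genes was not tested. Lamc1, the gamma chain of most laminins, had the highest RPKM of these chains. It was 304, 298 and 295 RPKM in Il33+ WAT-MSC, 358, 495 and 443 in Il33- WAT-MSC and 155, 151 and 152 in lung Il33+ MSC. In endothelium it was 109, 152 and 176, and in epithelium 11.9, 9.85 and 11.5. The 3 libraries of Il33+ WAT-MSC and those of lung Il33+ MSC lay close together. Lamb1, a beta chain, was 66.9, 72.0 and 65.2 in Il33+ WAT-MSC, 122, 171 and 149 in Il33- WAT-MSC, 32.8, 32.3 and 38.4 in lung Il33+ MSC, 24.9, 34.4 and 48.9 in endothelium and 2.90, 3.20 and 3.47 in epithelium. For both chains lung MSC and endothelium overlapped and every other pair of neighbours did not.

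Lama2 encodes the alpha chain of muscle and nerve laminins, whose loss causes a congenital muscular dystrophy. It was 72.9, 74.4 and 70.6 RPKM in Il33+ WAT-MSC, 92.7, 125 and 119 in Il33- WAT-MSC, 52.4, 53.0 and 55.5 in lung Il33+ MSC, 19.7, 23.0 and 36.5 in endothelium and 0.96, 1.25 and 1.65 in epithelium. No neighbouring populations in its order overlapped. Lama4, the alpha chain of vascular and adipose laminins, was 62.1, 70.3 and 67.3 in Il33+ WAT-MSC, 63.5, 87.5 and 85.8 in Il33- WAT-MSC, 38.5, 40.6 and 38.6 in lung Il33+ MSC, 23.2, 32.7 and 46.5 in endothelium and 4.30, 2.32 and 3.15 in epithelium. Its WAT-MSC populations overlapped, as did lung MSC with endothelium.

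Of the linkers, Nid1 had the highest mean of the members in each population, although in epithelium Col4a2 and Lamc1 lay close to it. It was 601, 835 and 709.6 RPKM in Il33+ WAT-MSC, 703, 852 and 855 in Il33- WAT-MSC, 227, 228 and 247 in lung Il33+ MSC, 260.0, 272 and 314 in endothelium and 12.5, 9.51 and 12.6 in epithelium. The WAT-MSC populations overlapped and the remaining neighbours did not. Nid2, which binds the same partners, was 20.3, 16.5 and 17.8 in Il33+ WAT-MSC, 42.4, 51.2 and 44.3 in Il33- WAT-MSC, 4.18, 4.89 and 3.79 in lung Il33+ MSC, 4.52, 17.4 and 16.1 in endothelium and 0.16, 0.09 and 0.48 in epithelium. Hspg2 was 62.6, 23.5 and 66.0 in Il33+ WAT-MSC, 112, 181 and 172 in Il33- WAT-MSC, 43.0, 51.5 and 43.1 in lung Il33+ MSC, 14.9, 46.7 and 75.3 in endothelium and 0.71, 1.80 and 2.69 in epithelium. Below Il33- WAT-MSC, the next 3 populations of Hspg2 overlapped each other, and Il33+ WAT-MSC replicate 2 stood apart from its 2 companions.

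In adipose stroma, 6 members were lower in Il33+ than in Il33- cells: Col4a1, Col4a2, Col15a1, Lamb1, Nid2 and Hspg2. The mean of each was lower by a factor of 2.16 to 3.06. Lama2 and Lamc1 lay lower without overlap of libraries but did not pass the test, and Nid1 and Lama4 overlapped. The comparison asked how stroma with and without the reporter differed within WAT, and used limma on log2(RPKM + 1) with Benjamini-Hochberg adjustment over all 8448 genes tested and a threshold of 0.05, as in the comparisons that follow. Adding 1 understates the change of genes at low RPKM. The count of 6 of 10 stands against 0.651% of all genes called lower and 0.923% called higher. Since the members were chosen with earlier results of these data known, such contrasts with all genes are a description, here and below. The libraries of 8 members did not overlap, all lower in Il33+ cells, against 8.65% of all genes. The median log2 difference (Il33+ minus Il33-) was -1.19 over the members and -0.01 over all genes.

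The fitted differences in adipose stroma were largest for perlecan and the collagens. Hspg2 differed by -1.70 ± 0.37 (log2, SE, n = 3 and 3, limma adjusted p = 0.0478), Col4a1 by -1.59 ± 0.22 (limma adjusted p = 0.00577) and Col4a2 by -1.50 ± 0.25 (limma adjusted p = 0.0128). Col15a1 differed by -1.34 ± 0.23 (limma adjusted p = 0.0145), Nid2 by -1.29 ± 0.22 (limma adjusted p = 0.0148) and Lamb1 by -1.09 ± 0.22 (limma adjusted p = 0.0321). For the members that did not pass, the differences were -0.61 ± 0.21 for Lama2 (limma adjusted p = 0.267), -0.52 ± 0.22 for Lamc1 (limma adjusted p = 0.399), -0.23 ± 0.22 for Lama4 (limma adjusted p = 0.761) and -0.17 ± 0.25 for Nid1 (limma adjusted p = 0.860). All 10 differences had the same sign, from -0.17 for Nid1 to -1.70 for Hspg2, and whether the members differed from each other was not tested. Hspg2 did not pass when any single library was left out (limma adjusted p = 0.0610 to 0.151), and without its low library, Il33+ replicate 2, it differed by -1.23 (limma adjusted p = 0.0826).

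The number of members called in adipose stroma was sensitive to single libraries, although all 10 differences kept their sign in each case. It was 1 without Il33+ replicate 1, 2 without Il33+ replicate 2, 3 without Il33+ replicate 3, 1 without Il33- replicate 2, 1 without Il33- replicate 3 and 5 without Il33- replicate 1. Sequencing lane 2 held replicate 3 alone in the WAT populations, and all 10 differences were negative in each lane, with medians of -1.17 in lane 1 and -1.06 in lane 2. The sum of 9 pericyte and smooth muscle markers was 33.3 to 39.7 RPKM in Il33+ and 6.89 to 18.1 in Il33- libraries, which rested on Abcc9 (means of 19.1 and 1.59) and Rgs5 (11.9 and 4.39). Kcnj8, Cspg4, Mcam, Acta2, Myh11 and Des overlapped, and Notch3 lay lower in Il33+ libraries (0.27 and 1.85). The sum of 7 mesothelial markers was 33.1 to 102 against 20.4 to 29.5, with higher means in Il33+ cells for all but Wt1. The 12 endothelial markers overlapped, at 37.0 to 54.5 against 24.6 to 49.0 RPKM. The 12 stromal markers were 6263 to 8232 in Il33+ and 4846 to 6592 in Il33- libraries, overlapping, and the part of these sums in the result was not tested.

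**Figure D2:**
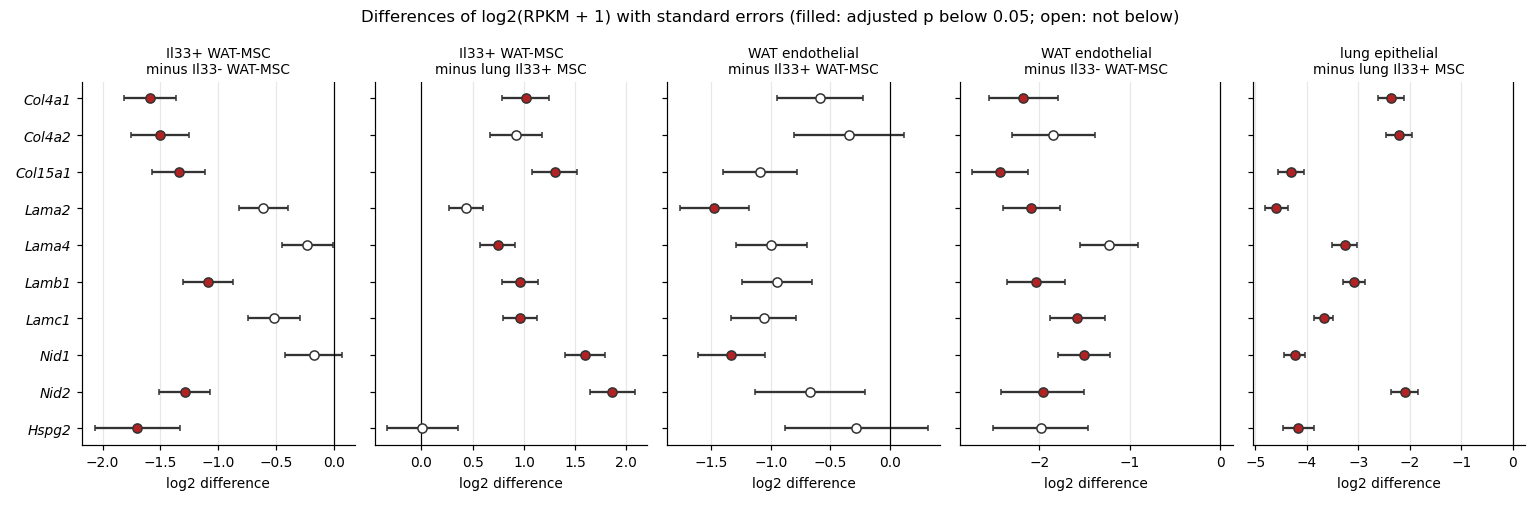
Log2 differences of the 10 members in the 5 comparisons, on log2(RPKM + 1), with standard errors; each panel has its own scale. Filled points passed an adjusted p of 0.05 in limma: 6, 7, 2, 7 and 10 members from left to right. Points lie left of 0 in every panel but the comparison of Il33+ WAT-MSC with lung, where they lie right of it or, for Hspg2, on it.

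Il33+ stroma of adipose tissue had higher levels than Il33+ stroma of the lung for 7 members: Nid2, Nid1, Col15a1, Col4a1, Lamc1, Lamb1 and Lama4. Against 8554 genes tested, 2.5% were called higher and 3.5% lower. The libraries of 9 members lay higher without overlap, against 12.1% of all genes, Hspg2 being the exception. The median log2 difference (WAT minus lung) was 0.96 over the members and 0.03 over all genes. The nidogens differed most, Nid2 by 1.86 ± 0.22 (limma adjusted p = 0.000775) and Nid1 by 1.60 ± 0.20 (limma adjusted p = 0.000922). Col15a1 differed by 1.30 ± 0.22 (limma adjusted p = 0.00579), Col4a1 by 1.02 ± 0.23 (limma adjusted p = 0.0254), Lamc1 by 0.96 ± 0.17 (limma adjusted p = 0.00663), Lamb1 by 0.96 ± 0.18 (limma adjusted p = 0.00885) and Lama4 by 0.75 ± 0.17 (limma adjusted p = 0.0273). Col4a2 (0.92 ± 0.25, limma adjusted p = 0.0643), Lama2 (0.43 ± 0.17, limma adjusted p = 0.202) and Hspg2 (0.01 ± 0.34, limma adjusted p = 0.993) did not pass. Between the adipose stroma populations, by contrast, the value was smallest for Nid1 and largest for Hspg2. Both comparisons share the Il33+ WAT-MSC libraries, and the difference between them was not tested.

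Leaving out lung replicate 1 left 4 members called in the comparison with lung, and leaving out lung replicate 2 left 2, Nid1 and Nid2. Lanes were not balanced between the tissues: lane 1 held 2 WAT libraries and 1 lung library, and lane 2 held 1 and 2. In lane 1 the difference was positive for 9 members, Hspg2 being at -0.16, and in lane 2 for 10. With lane as a covariate the median log2 difference over the members was 1.04. The pericyte and smooth muscle markers summed to 106 to 114 RPKM in lung Il33+ MSC and 33.3 to 39.7 in Il33+ WAT-MSC, most of the lung sum being Abcc9 (mean of 84.6) and Kcnj8 (18.6), whereas Rgs5 (0.50 against 11.9), Des (0.86 against 2.27) and Cspg4 (0.27 against 0.74) lay lower in lung. The leukocyte markers summed to 185 to 196 and 6.13 to 22.5, and the mesothelial markers to 1.35 to 4.06 and 33.1 to 102. Their part in the result was not tested.

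In WAT endothelium each member had a lower mean than in either stromal population of the same tissue, but the 3 endothelial libraries differed widely. Against Il33+ WAT-MSC, only Lama2 and Nid1 passed the test, and the libraries of 6 members (Col15a1, Lama2, Lama4, Lamb1, Lamc1 and Nid1) did not overlap. Col4a1, Col4a2, Nid2 and Hspg2 overlapped. Of 8665 genes, 0.565% were called lower, 3.34% were called higher and 13% lay lower without overlap. Lama2 differed by -1.48 ± 0.29 (endothelium minus Il33+ WAT-MSC, limma adjusted p = 0.0266) and Nid1 by -1.33 ± 0.28 (limma adjusted p = 0.0331). Nid1 missed the threshold with median-ratio scaling (-1.11, limma adjusted p = 0.0520), quantile normalization (-0.76, limma adjusted p = 0.0877) and no filter on low values (limma adjusted p = 0.0827). The other 8 ranged from -1.09 ± 0.31 for Col15a1 (limma adjusted p = 0.116) to -0.28 ± 0.60 for Hspg2 (limma adjusted p = 0.862). The median was -0.97 over the members and -0.18 over all genes.

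Against Il33- WAT-MSC, which shares the endothelial libraries with the comparison above, 7 members passed: Col15a1, Col4a1, Lama2, Lamb1, Nid2, Lamc1 and Nid1. All 10 lay lower without overlap of libraries. Of 8713 genes, 1.6% were called lower, 4.1% were called higher and 13.4% lay lower without overlap. Col15a1 differed by -2.43 ± 0.30 (limma adjusted p = 0.00191), Col4a1 by -2.18 ± 0.38 (limma adjusted p = 0.0105), Lama2 by -2.09 ± 0.31 (limma adjusted p = 0.0048) and Lamb1 by -2.04 ± 0.32 (limma adjusted p = 0.0056). Nid2 differed by -1.96 ± 0.46 (limma adjusted p = 0.0376), Lamc1 by -1.58 ± 0.30 (limma adjusted p = 0.0162) and Nid1 by -1.51 ± 0.29 (limma adjusted p = 0.0157). Hspg2 (-1.98 ± 0.52, limma adjusted p = 0.0638), Col4a2 (-1.85 ± 0.46, limma adjusted p = 0.0502) and Lama4 (-1.23 ± 0.32, limma adjusted p = 0.0633) missed the threshold. All 10 members passed, however, with the sequencing lane as a covariate, with all libraries in 1 fit, with median-ratio scaling and with quantile normalization. They also all passed with equal replicate numbers fitted as a block.

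Among the endothelial libraries, replicate 1 had the lowest and replicate 3 the highest level for 8 of the 10 members. Set against the mean of Il33+ WAT-MSC, the members stood at a median of 36.4% in replicate 1, 50.6% in replicate 2 and 70.9% in replicate 3. The 12 stromal markers moved alongside, with medians of 32.6, 42.0 and 66.9%. The summed RPKM of all genes also rose, from 122325 in replicate 1 to 133813 in replicate 2 and 178453 in replicate 3. As a share of that sum the members were 0.470, 0.587 and 0.587%, so their share did not rise from replicate 2 to replicate 3. In replicate 3, Hspg2 reached 149%, Col4a2 147% and Col4a1 101% of the Il33+ WAT-MSC mean, whereas Nid1 stayed at 36.3, 38.0 and 43.9% in the 3 libraries. Set against the mean of Il33- WAT-MSC, the medians were 16.005, 29.7 and 37.1% for the members and 38.9, 50.3 and 82.1% for the stromal markers, so the 2 sets were close with the first reference and apart with the second. The mesothelial markers summed to 49.0, 177 and 175 RPKM in endothelial replicates 1, 2 and 3. The leukocyte markers summed to 283, 386 and 238, against 6.13 to 22.5 in Il33+ WAT-MSC, and the pericyte and smooth muscle markers to 287, 294 and 219.9, the highest of the 5 populations. Of the adipocyte markers only Fabp4 and Cfd were in the table, and Fabp4, which capillary endothelium also expresses, was 187 to 397 RPKM in endothelium and Cfd 2.26 to 7.42. The part of these sums in the members' levels was not tested.

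**Figure D3:**
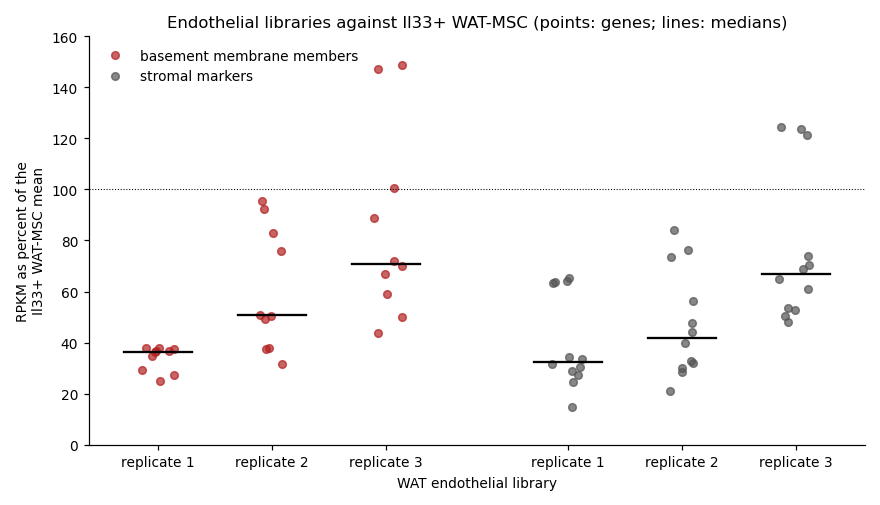
RPKM in each of the 3 WAT endothelial libraries as a percent of the mean of Il33+ WAT-MSC, for the 10 members and 12 stromal markers. Points are genes, lines are medians (36.4, 50.6 and 70.9% for the members, 32.6, 42.0 and 66.9% for the markers), and the dotted line marks 100%.

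Single libraries changed the endothelial counts. Against Il33+ WAT-MSC the count of 2 became 0 without Il33+ replicate 1, 2 or 3 and without endothelial replicate 2, with 6 members at an unadjusted p below 0.05 in limma in each case, 1 without endothelial replicate 1 and 4 without endothelial replicate 3. Without endothelial replicate 1, the differences of Col4a2 and Hspg2 were 0.17 and 0.36, the reverse of the sign above. Against Il33- WAT-MSC the count of 7 became 3 without Il33- replicate 2, 4 without Il33- replicate 3 and 4 without endothelial replicate 2, with 10 called without endothelial replicate 3. All 10 members were lower than in Il33- WAT-MSC within each lane, whereas against Il33+ WAT-MSC all 10 were lower in lane 1 and 8 in lane 2, with Col4a2 at 0.22 and Hspg2 at 0.19.

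Lung epithelium had the lowest level of every member, and all 10 passed the test against lung Il33+ MSC, without overlap of libraries. Of 9352 genes, 24.4% were called lower, 18.5% were called higher and 31.2% lay lower without overlap, so calls were common in this comparison. The median log2 difference (epithelium minus lung MSC) was -3.47 over the members and -0.13 over all genes. Lama2 differed by -4.59 ± 0.22 (limma adjusted p = 8.73e-07), Col15a1 by -4.31 ± 0.25 (limma adjusted p = 1.93e-06), Nid1 by -4.24 ± 0.20 (limma adjusted p = 8e-07) and Hspg2 by -4.16 ± 0.30 (limma adjusted p = 5.63e-06). Lamc1, Lama4 and Lamb1 differed by -3.67, -3.27 and -3.08. The type IV collagen chains, Col4a1 at -2.36 ± 0.25 (limma adjusted p = 6.33e-05) and Col4a2 at -2.21 ± 0.26 (limma adjusted p = 0.000109), differed less, as did Nid2 at -2.10 ± 0.26 (limma adjusted p = 0.000169), whose level in epithelium was below 0.5 RPKM and whose fitted difference therefore rests on the added 1. All 10 kept their sign in each lane, and 10 were called when any 1 epithelial library was left out. Without any 1 lung MSC library 9 were called, as Nid2 then fell under the filter on low values and was not tested. With libraries rescaled to their median gene, which limits the effect of a dominant transcript such as Scgb1a1, the median over the members was -3.23. The 12 stromal markers stood at 7540 to 9936 RPKM in lung Il33+ MSC and 162 to 267 in epithelium.

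Shares within a library do not depend on the scaling between libraries and were compared for 3 pairs of related chains, in 15 exact two-sided permutation tests (3 against 3 libraries, smallest possible p = 0.1). None can pass 0.05 in this design. Of the pair Lama2 and Lama4, alternative alpha chains of the laminin trimer, Lama4 made up 46.0, 48.6 and 48.8% in Il33+ WAT-MSC and 40.6, 41.1 and 41.9% in Il33- WAT-MSC. The share was 42.3, 43.4 and 41.0% in lung Il33+ MSC, 54.0, 58.8 and 56.1% in endothelium and 81.7, 65.0 and 65.6% in epithelium, where it rests on RPKM values of 0.96 to 4.30. The 2 populations did not overlap in any of the 5 comparisons, each with an exact permutation p = 0.1 (adjusted 0.188). Lama4 was thus the larger share in endothelium and epithelium and the smaller share in all 9 MSC libraries, and the Il33+ and Il33- adipose stroma differed by 6.58 percentage points.

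Nid2 made up only a few percent of the nidogen pair in each population. It was 3.26, 1.94 and 2.45% in Il33+ WAT-MSC, 5.69, 5.67 and 4.93% in Il33- WAT-MSC, 1.81, 2.10 and 1.51% in lung Il33+ MSC, 1.71, 6.00 and 4.88% in endothelium and 1.26, 0.94 and 3.68% in epithelium. The adipose stroma populations did not overlap (difference of -2.88 percentage points, exact permutation p = 0.1, adjusted 0.188), and the other 4 comparisons overlapped (exact permutation p = 0.2 to 1). Within adipose stroma the ratio of the laminin chains Lamc1 to Lamb1 did not overlap either, at 4.14 to 4.54 in Il33+ and 2.90 to 2.99 in Il33- libraries.

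Col4a2 stayed near the level of Col4a1 in all populations. Its share of the pair was 50.1, 43.0 and 54.2% in Il33+ WAT-MSC, 46.9, 46.8 and 49.2% in Il33- WAT-MSC, 51.4, 50.03 and 50.9% in lung Il33+ MSC, 49.4, 51.7 and 58.9% in endothelium and 52.4, 53.3 and 55.5% in epithelium. Libraries did not overlap for endothelium against Il33- WAT-MSC (5.71 percentage points) and epithelium against lung MSC (2.94 percentage points), each with an exact permutation p = 0.1 (adjusted 0.188). The near equality depends on how Col4a1 is counted: the table lists a coding transcript and a non-coding transcript of Col4a1, the latter at 46.7 to 47.3% of the gene in every library, and how reads were assigned between the 2 is not stated in the sources used here. With the larger transcript alone, the Col4a2 share in endothelium was 64.7 to 72.9%.

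**Figure D4:**
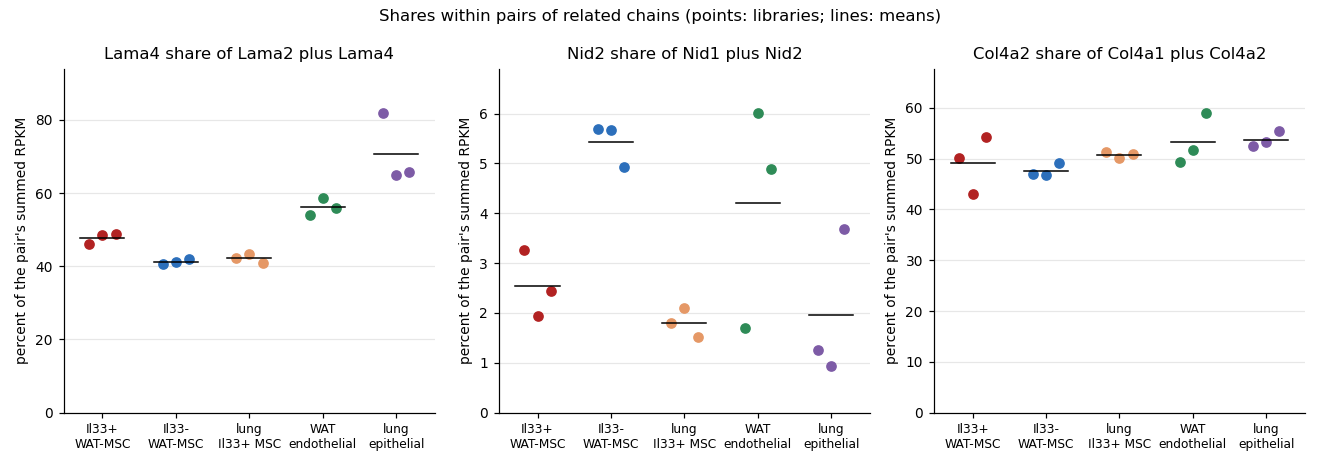
Shares of Lama4, Nid2 and Col4a2 in the summed RPKM of their pairs, by library. Points are libraries, lines are means of 3, and each axis starts at 0. Lama4 is above 50% in endothelium and epithelium and below it in the 9 MSC libraries, Nid2 is at most 6.00%, and Col4a2 lies between 43.0 and 58.9%.

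Of all 8448 genes tested between Il33+ and Il33- adipose stroma, 0.923% were called higher and 0.651% lower. At such shares a short list can hold 0 calls without differing from all genes. Among the other basement membrane genes 1 was called. Of 26 listed, 18 were in the table and 14 were tested. In limma 0 were called higher (3 at an unadjusted p below 0.05) and 1 lower (2 at an unadjusted p below 0.05), Pxdn, the peroxidase that forms the sulfilimine cross-link of type IV collagen. Pxdn was 15.2 to 19.4 RPKM in Il33+ and 32.7 to 44.7 in Il33- libraries (log2 difference -1.18, limma adjusted p = 0.0321), and it was also the gene most like Nid2 over all libraries. Their median log2 difference was 0.22, against -1.19 for the members and -0.01 for all genes. Of 13 genes of collagen assembly and secretion, 12 were tested and 0 were called (limma, 0 higher and 1 lower at an unadjusted p below 0.05), with a median of -0.06. Of 15 receptors of the basement membrane, 9 were tested and 0 were called (limma, 0 higher and 1 lower at an unadjusted p below 0.05), with a median of 0.02.

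Between Il33+ stroma of WAT and lung, 5 genes of the 3 lists were called. Of all genes, 2.5% were called higher in WAT and 3.5% lower. Pxdn was higher in WAT (log2 difference 0.89, limma adjusted p = 0.0487), whereas Npnt, the integrin ligand nephronectin (-2.06, limma adjusted p = 0.00734), and Hmcn1, hemicentin (-1.63, limma adjusted p = 0.0109), were higher in lung, among 15 tested. Among the 13 assembly genes 2 were higher in WAT: Loxl2, a lysyl oxidase that cross-links type IV collagen (86.7 against 39.5 RPKM, 1.11, limma adjusted p = 0.00352), and Plod2, a lysyl hydroxylase (1.05, limma adjusted p = 0.0143). None was lower (limma, 2 at an unadjusted p below 0.05). No receptor of 9 was called (limma, 2 higher and 1 lower at an unadjusted p below 0.05).

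Endothelium had lower levels of the members but higher levels of several genes of the basement membrane receptor list. Whether these receptors bind the products of the members was not tested. Against Il33+ WAT-MSC, 4 of 13 receptors were called higher and 1 lower, where 3.34% of all genes were called higher and 0.565% lower. Itgb4, the beta chain of a laminin-binding integrin, was 11.8 to 22.3 RPKM in endothelium and 0.04 to 0.40 in Il33+ WAT-MSC (3.69, limma adjusted p = 0.00174), and its partner Itga6 was 10.9 to 21.1 and 0.21 to 0.75 (3.49, limma adjusted p = 0.00215). Sdc2, a syndecan, was lower (-1.60, limma adjusted p = 0.0473). Against Il33- WAT-MSC 5 receptors were higher, led by Itgb4 (3.93, limma adjusted p = 0.00103) and the laminin receptor Bcam (3.92, limma adjusted p = 0.000989). In that comparison 1 was lower, Sdc2 (-2.09, limma adjusted p = 0.00496), where 4.1% of all genes were called higher and 1.6% lower. Tinagl1, a secreted basement membrane protein, was the single gene of the 17 other basement membrane genes tested that was higher against Il33+ WAT-MSC (3.62, limma adjusted p = 0.0173) and against Il33- WAT-MSC (4.42, limma adjusted p = 0.00117). In the former comparison 0 were lower (limma, 3 at an unadjusted p below 0.05), and in the latter 2 were: the type IV chain Col4a3 (-1.82, limma adjusted p = 0.0364) and the matricellular Smoc2 (-1.71, limma adjusted p = 0.0106). Of 12 assembly genes, 0 were called against Il33+ WAT-MSC (limma, 7 lower and 0 higher at an unadjusted p below 0.05) and Loxl2 was lower against Il33- WAT-MSC (-1.50, limma adjusted p = 0.0448).

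Epithelium had lower levels of the assembly genes together with the members. Over all genes of this comparison, 24.4% were called lower and 18.5% higher. The 4 of 17 other basement membrane genes called higher were near that share. All 13 assembly genes were called lower than in lung Il33+ MSC, led by Loxl1 (-4.11, limma adjusted p = 3.36e-06) and the collagen chaperone Serpinh1 (-4.06, limma adjusted p = 8.27e-06), with a median of -1.96. Of 17 other basement membrane genes, 12 were lower, led by Sparc, a collagen-binding protein (120.4 against 4603 RPKM, -5.27, limma adjusted p = 1.11e-06), and Smoc2 (-4.09, limma adjusted p = 1.52e-06). The 4 that were higher were led by Egfl6 (26.0 against 1.06 RPKM, 3.76, limma adjusted p = 9.55e-05) and Lama3, an alpha chain of epithelial laminins (2.40 against 0.12 RPKM, 1.58, limma adjusted p = 0.00123). Among 13 receptors, 6 were higher, led by Sdc1 (3.56, limma adjusted p = 1.58e-05) and Itga3 (2.84, limma adjusted p = 0.000119), and 4 lower, led by the fibrillar collagen receptor Ddr2 (-4.32, limma adjusted p = 8.45e-07) and Sdc2 (-2.18, limma adjusted p = 4.08e-05).

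Across the 15 libraries the members followed each other closely. Pearson's r of log2(RPKM + 1) ranged from 0.882 to 0.9947 over 45 pairs of members. These values are a description, since libraries of a population share their cell type and all members were lowest in epithelium. Among 9981 genes, Col4a1 was most like Col4a2 (r = 0.9926), followed by Lamb1 (0.982) and Nid2 (0.9777), and Col4a2 was most like Col4a1, Nid2 (0.9738) and Lamb1 (0.9692). Col15a1 was most like Lamb1 (0.9913), Adamts12 (0.9895) and Lamc1 (0.9885), and Lamb1 like Col15a1, Adamts12 (0.9909) and Sash1 (0.9884).

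For the other members, genes outside the list took more of the places. Loxl2 was the gene most like Lama4 (r = 0.996) and Lamc1 (0.9966) and the next after Lamc1 for Nid1 (0.9908). Lama4 was followed by Lamc1 (0.9947) and Medag (0.9918), Lamc1 by Lama4 and Nid1 (0.9937), and Nid1 had Penk (0.9892) after these. Lama2 was most like Ecm2 (0.9924), Nav1 (0.991) and Abca9 (0.9909), none of them a member. Nid2 was most like Pxdn (0.9806), Col4a1 (0.9777) and Col4a2 (0.9738). Hspg2 had the lowest top value, with Ppp1r10 (0.9747), Col6a1 (0.9725) and Col6a3 (0.9716), the last 2 being chains of a collagen that lies next to basement membranes.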

How the data were processed

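Cells sorted from WAT and lung gave 15 RNA-seq libraries. The authors amplified the RNA (Ovation RNA-seq System V2), sequenced it, aligned reads with TopHat2 in Partek Flow (build mm10, per the labels' processing notes) and deposited RPKM values per RefSeq transcript with 2 decimals; no model or filter is stated for these data. Counting error is unknown because counts were not used, and a dominant transcript lowers all other RPKM of its library. RPKM was summed per gene symbol.

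Each comparison used the 6 libraries of its populations: limma 3.58.1 in R 4.3.3 (lmFit, eBayes with trend) on log2(RPKM + 1), keeping genes that reached 1 RPKM in 3 or more libraries, Benjamini-Hochberg adjustment over all genes, threshold 0.05. The fit was tested on simulated data. Shares used exact permutation tests (scipy 1.17.1). The replicates are described as independent experiments. Alternatives were a replicate block, lane, all libraries, median-ratio scaling, quantile normalization, pseudocount 0.1, no filter, a filter at 5 RPKM, the top transcript and each library left out. Members and gene lists were chosen with earlier results of these data known. The genes named are the members, the 3 genes most like each, and in each list the 2 with the largest difference in each direction among those called. Positions are from RefSeq GRCm38.p6, the same build as mm10. 7 of 10 members had a promoter entry.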

Additional observations from a re-analysis of the deposited data

How the results depend on the processing

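All members kept their direction under every alternative, save those named here. The number called fell in adipose stroma (Il33+ against Il33-) from 6 to 3 with all libraries in 1 fit and to 1 without the filter, and ranged from 1 to 5 with single libraries left out. Against lung Il33+ MSC it ranged from 2 to 7 with single libraries left out. For endothelium against Il33+ WAT-MSC, the count of 2 became 6 with all libraries, 1 with median-ratio scaling, 1 with quantile normalization and 1 without the filter, and ranged from 0 to 4 with libraries left out; against Il33- WAT-MSC, where the main count was 7, that range was 3 to 10. For epithelium it was 9 to 10. The causes were not tested. Over all genes the calls in adipose stroma went from 133 to 232 with the replicate block and to 20 without the filter, those of endothelium with all libraries from 338 to 803 and from 496 to 1046, those against lung from 513 to 331 with all libraries, those of epithelium from 4019 to 2699 with the stricter filter, and leaving out libraries gave 49 to 121, 191 to 447, 56 to 261, 140 to 414 and 2835 to 3300 in the order of the comparisons.

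Hspg2 against lung reversed to -0.0212 with median-ratio scaling and to -0.00724 with quantile normalization, and ranged from -0.24 to 0.48 with libraries left out. In endothelium against Il33+ WAT-MSC, without 1 library, Col4a2 ranged from -0.80 to 0.17 and Hspg2 from -0.77 to 0.36. Among shares, without 1 library, the Nid2 difference ranged from -2.13 to 0.0162 percentage points (endothelium against Il33- WAT-MSC) and from -0.71 to 0.66 (epithelium), and the Col4a2 difference from -1.09 to 4.54 (adipose stroma) and from -4.25 to 1.38 (WAT against lung). Median-ratio scaling moved the median of all genes by 0.15 for both endothelial comparisons and by 0.19 for epithelium, and the members' medians to -0.76, -1.78 and -3.23.

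Whether equal replicate numbers pair the libraries could not be settled from their correlations, and the main fits left them unpaired. Same-numbered libraries correlated from -0.0671 to 0.155, with at most 1 of the 3 pairs of a comparison above 0.1. Every library of 3 comparisons, among them Il33+ against Il33- WAT-MSC, nevertheless correlated best with its own number. With the replicate block the counts were 6, 7, 2, 10 and 10 in the order of the comparisons, against 6, 7, 2, 7 and 10; Col4a2, Lama4 and Hspg2 were added for endothelium against Il33- WAT-MSC, and against lung Col4a2 was added and Lama4 lost. RPKM without counts limits what can be said of levels near 0, such as Nid2 in epithelium.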
